A study of Homo sapiens with 4 samples.

Results

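In HCT116 cells, a human colorectal carcinoma line, 2046 of the 25013 RNA polymerase II (RNAPII) peaks that passed the authors' filter carried TAF3 signal only below that filter and no filtered H3K4me3 peak (8.18%). These weak-TAF3 RNAPII peaks were chosen by a rule on 3 peak lists from 1 ChIP-seq library per antibody. They are under 5000 bp long, share no base with a filtered TAF3 or filtered H3K4me3 peak, and overlap at least 1 TAF3 peak of the authors' unfiltered list. The series has 4 libraries, 1 each for TAF3, H3K4me3, RNAPII and input DNA, all from fixed HCT116 monolayers at passages 15-18 for which the labels name no genetic change or drug. TAF3 was precipitated with a polyclonal serum to residues 290-389, H3K4me3 with ab8580 and RNAPII with N-20. No library has a replicate, so the groups compared below are groups of peaks within the same 3 libraries.

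TAF3 is a subunit of TFIID, the general transcription factor that recognises core promoters and nucleates the preinitiation complex into which RNAPII is recruited. Its PHD finger binds histone H3 trimethylated at lysine 4 (H3K4me3), the mark of active promoters. RNAPII is also found away from promoters, over gene bodies, downstream of genes and at enhancers, where H3K4me3 is usually low and TFIID is usually scarce. Whether RNAPII peaks with a trace of TAF3 and no strong H3K4me3 lie at promoters or away from them was not tested. They are described here by features that the rule bounded but did not set. These are the places of the RNAPII and TAF3 summits, the presence of low H3K4me3 and the distance to strong TAF3 sites. The required overlap with a TAF3 peak limits how far apart the summits can lie. Any H3K4me3 peak is below the filter by the rule, and no filtered TAF3 peak can overlap.

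The authors' filter kept peaks with a fold enrichment over input above 5 and a false discovery rate (FDR) below 5%. Fold enrichment is the peak caller's ratio of summit signal to the level expected locally from input. The TAF3 calls rested on 17411155 tags with duplicates dropped, the RNAPII calls on 16841238 and the H3K4me3 calls on 12560129, each set against 19185386 input tags. Of the 11141 RNAPII peaks with neither filtered partner, 10383 were under 5000 bp. The weak-TAF3 peaks made up 19.7% of these and covered 2.69 Mb. The remaining 8337 overlapped no TAF3 peak of either list, and are called TAF3-free below. For comparison, 61.7% of all filtered RNAPII peaks met a TAF3 peak of either kind, which the rule used and from which nothing is read. All intervals given for shares are Wilson 95% intervals, and those for differences of shares are Newcombe 95% intervals. They cover the counting of peaks only, and no p-value is given across peaks, which are not replicates.

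The weak-TAF3 peaks were of middling RNAPII enrichment. Their RNAPII fold enrichment had a median of 29.6, with quartiles of 21.4 and 42.8 and a range of 5.70 to 218. The median was 15.8 for TAF3-free peaks, 36.9 for peaks with filtered H3K4me3 and no filtered TAF3, 52.3 for peaks with filtered TAF3 and no filtered H3K4me3, and 107.7 for peaks with both. These 4 comparison classes held 8337, 2259, 186 and 10570 peaks under 5000 bp. The filters that define the classes are on the same libraries, so these levels describe the selection and were not tested.

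Weak-TAF3 peaks were most frequent in the middle of the RNAPII range. They formed 0.833% of the RNAPII peaks of 5- to 10-fold enrichment, 7.57% of those of 10- to 20-fold, 22.4% of those of 20- to 40-fold, 12.6% of those of 40- to 80-fold, 1.05% of those of 80- to 160-fold and 0.275% of those above 160-fold. Between 20- and 80-fold lay 1562 of the 2046 (76.3%). At the top, 71 exceeded 80-fold and 19 exceeded the 107.7-fold median of peaks with both partners. The share of TAF3-free peaks fell from bin to bin throughout, from 96.8% of the lowest to 0.165% of the highest.

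**Figure D1:**
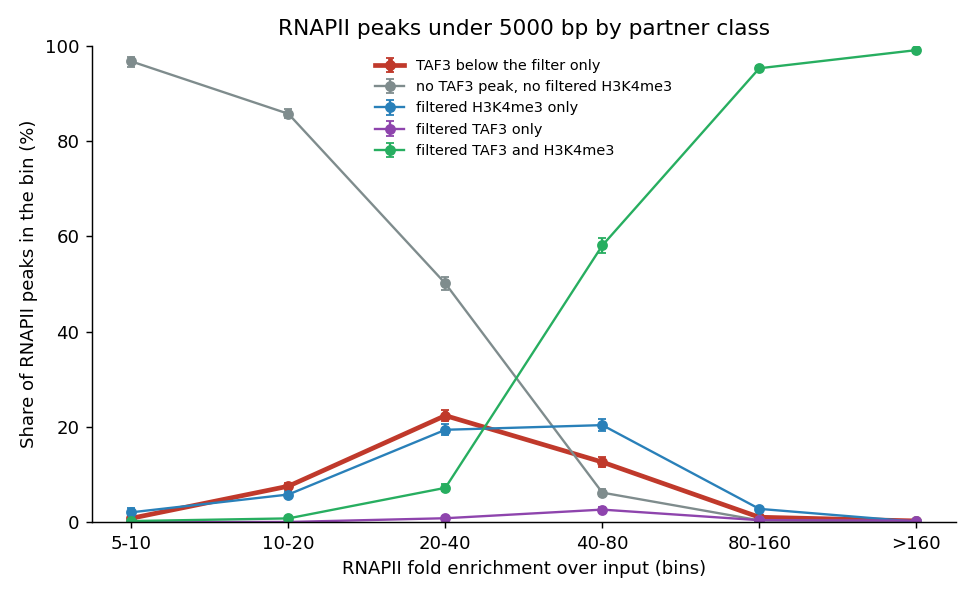
Share of RNAPII peaks under 5000 bp (y axis, percent, with Wilson 95% intervals) that fell in each partner class, by bin of RNAPII fold enrichment over input (x axis). The thick red line, TAF3 below the filter only, is highest at 22.4% in the 20- to 40-fold bin, between the fall of TAF3-free peaks and the rise of peaks with both filtered partners.

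The strongest RNAPII signals of the class exceeded the median of peaks with both filtered partners, over small TAF3 peaks. At chr15:65587803-65589342 (hg19, as are all coordinates here) RNAPII reached 218-fold with 1050 tags, and the TAF3 peak inside it had 40 tags, 14.7-fold enrichment and an FDR of 8.44%. The TAF3 summit, at 65588595, was 38 bp from the RNAPII summit at 65588557. No H3K4me3 peak, filtered or not, overlapped it.

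A pair of neighbours on chromosome 6 ranked 2 and 5. At chr6:30771864-30775824 RNAPII was 197-fold enriched with 1774 tags, and TAF3 was 18.4-fold with 46 tags. It overlapped an H3K4me3 peak of 11.5-fold and 29 tags. At chr6:30780643-30784470 RNAPII was 175-fold with 1378 tags, over 3 separate TAF3 peaks, of which the strongest was 19.0-fold with 36 tags. Both were wide for the class, at 3961 and 3828 bp, and both lay more than 50 kb from a filtered TAF3 peak (53908 and 62687 bp).

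Other leaders paired high RNAPII with a small TAF3 peak. At chr19:13028928-13030683 RNAPII was 178-fold with 499 tags and TAF3 10.1-fold with 27 tags (FDR 14.1%). At chr1:147993453-147995049 RNAPII was 176-fold with 386 tags and TAF3 12.9-fold with 15 tags (FDR 30.4%). The summits there were 299 bp apart, and the RNAPII summit lay outside the TAF3 peak. At chr1:45284500-45286469 RNAPII was 159-fold with 933 tags and TAF3 11.6-fold with 56 tags (FDR 12.1%), with summits 358 bp apart. TAF3 was lower still at chr2:121832020-121833191, where RNAPII was 131-fold with 875 tags and TAF3 7.43-fold with 27 tags (FDR 36.0%). The top 10 by RNAPII enrichment included 2 with an H3K4me3 peak below the filter. In tags the class was led by chr2:232578143-232581758, with 2063 RNAPII tags at 93.9-fold and a TAF3 peak of 45 tags at 12.8-fold, which lay 1460 bp from a filtered TAF3 peak and 907 bp from a filtered H3K4me3 peak.

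At the low end of RNAPII enrichment TAF3 fold enrichment was low too, but TAF3 tags were near or above the class median of 30. The lowest RNAPII enrichment was 5.70-fold, at chr15:67397120-67400311, where 196 tags were spread over 3192 bp and the TAF3 peak of 6.06-fold and 27 tags had its summit 1683 bp away. At chr17:55943527-55947816 RNAPII was 8.15-fold over 4290 bp and TAF3 4.88-fold with 38 tags, with summits 38 bp apart. At chr10:112219440-112220742 RNAPII was 8.25-fold and TAF3 4.41-fold with 46 tags. The limit of 5000 bp cut through a thin part of the list. Just under it were chr4:102074039-102079021 (4983 bp, RNAPII 54.8-fold, TAF3 7.86-fold) and chr4:30768347-30773306 (4960 bp, RNAPII 60.1-fold, TAF3 16.0-fold). Just over it were chr8:29195452-29200479 (5028 bp, 554 RNAPII tags, 19 TAF3 tags) and chr4:11633262-11638356 (5095 bp, RNAPII 46.3-fold, TAF3 9.44-fold).

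The TAF3 signal consisted of 2139 distinct TAF3 peaks, 34.9% of the 6122 TAF3 peaks outside the authors' filter. Every one of the 2139 failed on the FDR, and 59 also had a fold enrichment of 5 or less. By the strongest TAF3 peak at each RNAPII peak, the median was 30 tags and 9.11-fold enrichment (quartiles 7.14 and 11.6, range 3.53 to 29.7). The FDR ran from 5.02% to 51.3% with a median of 18.2%. A single TAF3 peak was present at 1957 RNAPII peaks, 79 had 2 and 10 had 3, and 6 TAF3 peaks were shared between neighbouring RNAPII peaks. Of the other TAF3 peaks outside the filter, 2771 lay on a filtered H3K4me3 peak, with a median of 10.8-fold and 31 tags, and 962 lay on neither a filtered RNAPII nor a filtered H3K4me3 peak, with a median of 9.05-fold and 17 tags. The median on the weak-TAF3 peaks, counted over TAF3 peaks, was 9.05-fold and 30 tags. The 962 can still lie on RNAPII peaks that failed the authors' filter.

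The TAF3 filter cut a continuous list on FDR, so the peaks on either side of it adjoin by construction. The highest MACS score among these TAF3 peaks, the negative log10 of the p-value multiplied by 10, was 266.3, and the lowest among filtered TAF3 peaks was 266.8. In fold enrichment, 36.9% of filtered TAF3 peaks were at or under the highest fold enrichment in the class, 29.7, while 0.289% were at or under its TAF3 median of 9.05. Nearest inside the rule was chr10:103985506-103986567, with an FDR of 5.02%, 66 TAF3 tags at 14.3-fold and RNAPII at 49.9-fold. Next were chr1:10863671-10865003, at 5.08% with 93 tags and 9.18-fold, and chr2:201166974-201168469, at 5.09% with 54 tags and 17.6-fold. Nearest outside, and so excluded, were chr2:10422441-10427300 at 4.99% with 67 TAF3 tags and 14.4-fold, and chr8:67035972-67037378 at 4.99% with 54 tags and 19.4-fold.

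The strongest TAF3 in the class was of moderate size and mostly at places with low H3K4me3. It was 29.7-fold with 31 tags at chr15:34729815-34730330, where RNAPII was 61.5-fold and an H3K4me3 peak of 15.9-fold overlapped. A filtered H3K4me3 peak lay only 39 bp beyond the edge of that RNAPII peak. At chr20:46205207-46206554 TAF3 was 27.1-fold with 31 tags and RNAPII 96.2-fold with 120 tags, and both summits fell on base 46205686. At chr14:103034109-103035135 TAF3 was 25.9-fold and RNAPII 85.5-fold. At chr22:47525015-47526199 TAF3 was 25.1-fold with 42 tags and RNAPII 76.1-fold, and the nearest filtered TAF3 peak was 365666 bp away. At chr15:93374695-93376061 TAF3 was also 25.1-fold, with RNAPII at 127-fold and summits 2 bp apart, the single region that was in the top 10 by both measures. Of the top 10 by TAF3, 8 had an H3K4me3 peak below the filter, at FDRs from 10.5% to 71.2%, and 9 had summits within 100 bp. The exception was chr19:49248168-49251084, where a TAF3 peak of 28.6-fold lay 1768 bp from the RNAPII summit.

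TAF3 and RNAPII enrichment varied together within the class, which is given as a description only. The rule set limits on both through the filters, and both fold enrichments are ratios to the same input. Across the 2046 peaks, which share the same input library and are not replicates, the rank correlation was 0.52 for fold enrichment and 0.52 for tags. When the peaks were divided into 5 equal groups by RNAPII fold enrichment, from lowest to highest, the median TAF3 fold enrichment was 7.22, 8.02, 8.75, 9.84 and 12.6. The TAF3 tag count per peak was nearly flat over the same groups, with medians of 30, 30, 28, 29 and 32. Fold enrichment of TAF3 and TAF3 tags had a rank correlation of -0.025. TAF3 exceeded RNAPII in fold enrichment at 6 of the 2046 peaks.

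The ratio of TAF3 to RNAPII enrichment uses the values that chose the classes and is given as a description. Its median was 0.299 in weak-TAF3 peaks, 0.316 in peaks with filtered TAF3 and no filtered H3K4me3, and 0.349 in peaks with both filtered partners. These classes cover unlike ranges of RNAPII enrichment. At matched RNAPII enrichment the median TAF3 level was lower in weak-TAF3 peaks than where TAF3 passed the filter, which the rule favours by leaving out filtered TAF3. Among RNAPII peaks of 40- to 80-fold, the median TAF3 fold enrichment was 11.5 in the 524 weak-TAF3 peaks, 12.4 in the 778 with filtered H3K4me3 and a TAF3 peak below the filter, 16.2 in the 110 with filtered TAF3 alone, and 23.0 in the 2411 with both. The rule sets no TAF3 difference from the 778, whose TAF3 also failed the filter.

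**Figure D2:**
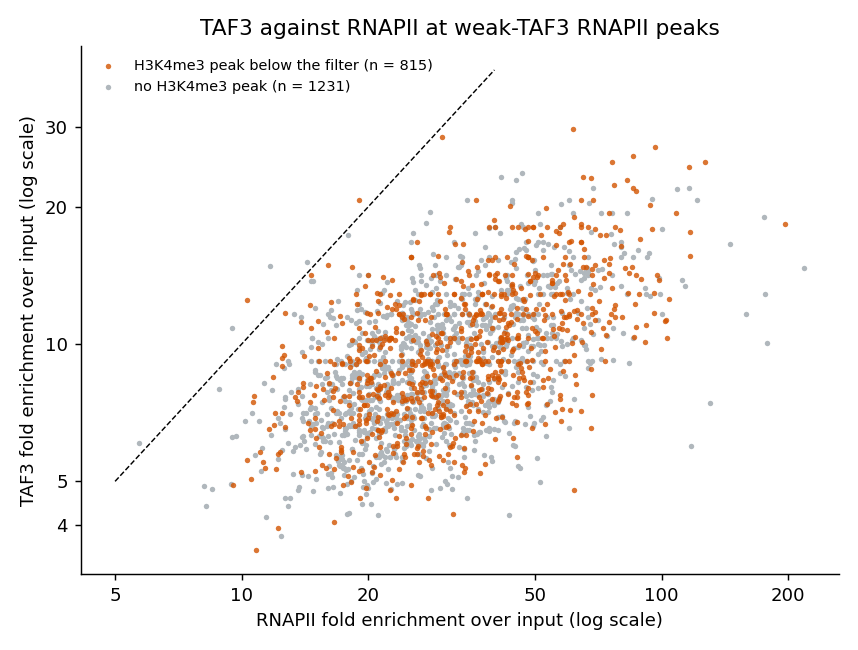
TAF3 fold enrichment (y axis, log scale) against RNAPII fold enrichment (x axis, log scale) at each of the 2046 weak-TAF3 RNAPII peaks, with the dashed line marking equal values. Orange points (815) overlap an H3K4me3 peak below the authors' filter and grey points (1231) do not. All but 6 points lie below the dashed line, and the 2 colours are intermixed.

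TAF3 and RNAPII summits lay within 100 bp of each other at most weak-TAF3 peaks, less often than at peaks with both filtered partners in all but the narrowest peaks. The median distance was 61 bp (quartiles 23 and 167 bp), and 1300 of 2046 pairs lay within 100 bp (63.5%, interval 61.4 to 65.6%). The rule used overlap and not summit position, though overlap limits how far apart the summits can lie. The share was 65.1% of 186 in peaks with filtered TAF3 and no filtered H3K4me3, a difference of -1.52 points (interval -8.33 to 5.87, which includes 0). In the 10570 peaks with both filtered partners it was 68.4%, a difference of -4.83 points (interval -7.12 to -2.59). Over all RNAPII peaks under 5000 bp with any TAF3 peak the share was 66.9%.

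At closer range the weak-TAF3 peaks were less precise than peaks with both filtered partners. Summits lay within 25 bp at 27.1% of them, against 36.9% of peaks with both filtered partners, and within 50 bp at 44.3% against 54.6%. At 200 bp the shares were 79.4% and 78.3%. The looser summits were not particular to the class. In the 1750 peaks with filtered H3K4me3 and TAF3 only below the filter, the median distance was also 61 bp (quartiles 22 and 188 bp). Their TAF3 peaks had a median of 36 tags, against 30 in weak-TAF3 peaks and 186 in peaks with both filtered partners. Whether tag count sets the summit distance was not tested. Only 38 weak-TAF3 peaks had summits more than 1000 bp apart. The RNAPII summit fell inside the strongest overlapping TAF3 peak at 1895 of them (92.6%), and 70.5% of the overlapping TAF3 peaks lay wholly inside the RNAPII peak.

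Coincidence of summits varied with width and with enrichment. A narrow RNAPII peak leaves less room for the summits to lie apart, so shares in unlike width groups are not comparable. In RNAPII peaks under 750 bp wide, 79.1% of 455 weak-TAF3 peaks had summits within 100 bp, against 68.4% of 209 peaks with both filtered partners, a difference of 10.7 points (interval 3.57 to 18.2). In all 4 wider groups the order was the opposite, from -8.97 points at 1000 to 1500 bp to -18.8 points at 2500 to 5000 bp, where the shares were 46.6% and 65.3%. Over the 5 groups of RNAPII fold enrichment within the class, from lowest to highest, summits lay within 100 bp at 51.5%, 59.7%, 62.1%, 69.7% and 74.8%. Median width was nearly level over these groups, at 1038, 1008, 1033, 993 and 1072 bp.

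**Figure D3:**
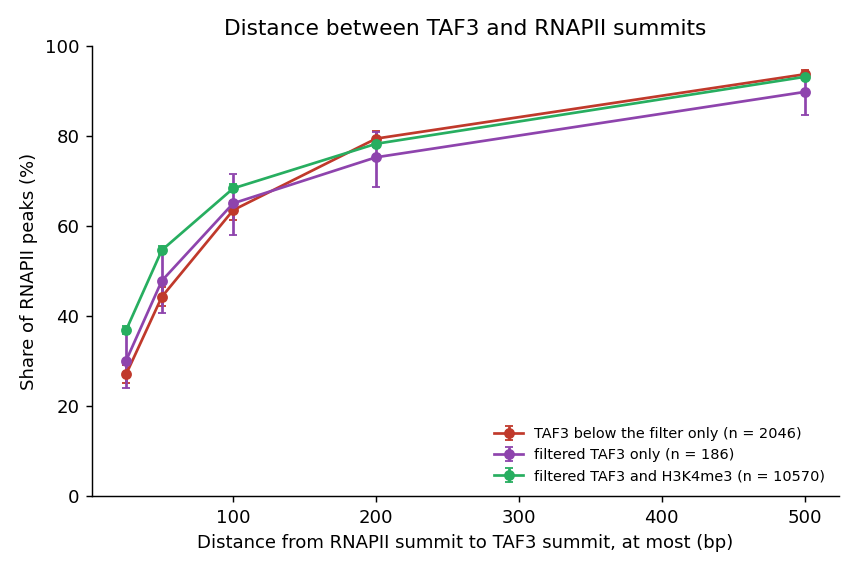
Share of RNAPII peaks (y axis, percent, with Wilson 95% intervals) whose summit lay within a given distance of the summit of the overlapping TAF3 peak of highest fold enrichment (x axis, bp). Weak-TAF3 peaks (red) start below peaks with both filtered partners (green) at 25 bp, 27.1% against 36.9%, and the curves meet by 200 bp.

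Low H3K4me3 was present at 815 of the 2046 weak-TAF3 peaks (39.8%, interval 37.7 to 42.0%), measured as overlap with an H3K4me3 peak that failed the authors' filter. Among TAF3-free peaks it was present at 440 of 8337 (5.28%, interval 4.82 to 5.78%), a difference of 34.6 points (interval 32.4 to 36.7). Both groups lack filtered H3K4me3 by the rule, so the comparison concerns H3K4me3 below the filter. TAF3 and H3K4me3 were called against the same input library, so their weak calls are not independent of it. How much of the difference comes from the shared input was not tested. Over the 10383 peaks of the 2 groups together the share was 12.1%, and over all 25013 filtered RNAPII peaks, filtered H3K4me3 included, 60.3%. The share was higher still, 60.2% of 186, where TAF3 passed the filter without H3K4me3, a difference of -20.4 points for the weak-TAF3 peaks (interval -27.5 to -12.9).

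The difference from TAF3-free peaks remained at matched RNAPII enrichment. Both groups were pooled and divided into 10 equal groups by RNAPII fold enrichment, and the H3K4me3 share was higher in weak-TAF3 peaks in 10 of 10 groups, with the interval of the difference above 0 in each. The lowest groups held 9 and 19 weak-TAF3 peaks. In the other 8 the difference ran from 23.0 to 35.8 points. In the highest group, from 37.5- to 218-fold, H3K4me3 was present at 48.1% of 675 weak-TAF3 peaks and 17.9% of 364 TAF3-free peaks. Averaged over the groups, with weak-TAF3 peaks as weights, the difference was 28.0 points.

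Peak width changed the TAF3-free share far more than the weak-TAF3 share. From the narrowest group (under 750 bp) to the widest (2500 to 5000 bp), H3K4me3 was present at 38.5%, 44.5%, 41.9%, 34.8% and 33.8% of weak-TAF3 peaks, and at 22.7%, 10.8%, 4.75%, 2.16% and 1.29% of TAF3-free peaks. The difference was 15.8 points in the narrowest group (interval 10.4 to 21.2) and 32.5 points in the widest (interval 26.4 to 39.3). Weak-TAF3 peaks were themselves narrower, with a median of 1032 bp against 1661 bp, and 47.6% against 19.3% were under 1000 bp.

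**Figure D4:**
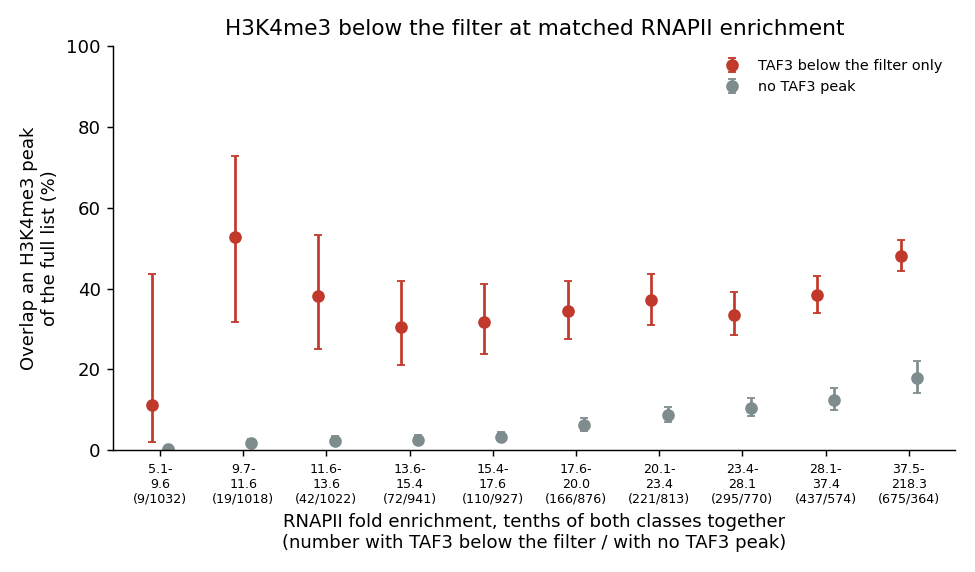
Share of RNAPII peaks with low H3K4me3, an overlapping peak below the filter (y axis, percent, with Wilson 95% intervals), for weak-TAF3 peaks (red) and TAF3-free peaks (grey), by RNAPII fold enrichment in 10 equal groups of both kinds together (x axis, with the number of peaks of each kind). Red points lie above grey points in all 10, at 48.1% against 17.9% in the highest, and the lowest holds 9 weak-TAF3 peaks.

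The H3K4me3 peaks were themselves weak. All 815 had an FDR of 5% or more and 4 a fold enrichment of 5 or less. Their median was 12.4-fold with 31 tags and a width of 814 bp, compared with 58.8-fold, 200 tags and 1545 bp at RNAPII peaks with filtered H3K4me3 and no filtered TAF3. The highest were at chr15:100466255-100466669, with 35.4-fold H3K4me3 and 39 tags beside 57.8-fold RNAPII and 12.9-fold TAF3, and at chr5:177099040-177099349, with 34.5-fold H3K4me3 and 29 tags beside 37.4-fold RNAPII and 12.9-fold TAF3. Both RNAPII peaks were short, at 415 and 310 bp.

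The H3K4me3 summit stood to the side of the other summits. Its median distance was 159 bp from the RNAPII summit and 155 bp from the TAF3 summit. It lay within 100 bp of the RNAPII summit at 30.2% of the 815 peaks, whereas the TAF3 summit did so at 62.6% of the same peaks. In 790 of the 815 the H3K4me3 peak overlapped the TAF3 peak itself. Where all 3 summits differed in position (808 peaks), TAF3 was in the middle at 43.3%, RNAPII at 39.4% and H3K4me3 at 17.3%.

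Weak-TAF3 peaks with H3K4me3 had somewhat more RNAPII and TAF3 than those without. RNAPII fold enrichment had a median of 32.4 in the 815 with H3K4me3 and 28.1 in the 1231 without, and exceeded 40-fold at 36.6% against 24.1% (difference 12.4 points, interval 8.37 to 16.5). TAF3 fold enrichment had a median of 9.52 against 8.84, and exceeded 10-fold at 46.1% against 35.8% (difference 10.3 points, interval 5.96 to 14.6). Over 5 equal groups of TAF3 fold enrichment, from lowest to highest, H3K4me3 was present at 31.0%, 37.9%, 38.3%, 41.9% and 50.1%. Summits of TAF3 and RNAPII lay within 100 bp at 62.6% with H3K4me3 and 64.2% without (difference -1.60 points, interval -5.88 to 2.64).

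The weak-TAF3 peaks lay farther from strong TAF3 sites than TAF3-free RNAPII peaks did. The median gap to the nearest filtered TAF3 peak was 34336 bp for weak-TAF3 peaks, against 15077 bp for TAF3-free peaks. For peaks with filtered H3K4me3 and no filtered TAF3 it was 32473 bp, so the long gap was not particular to weak-TAF3 peaks. A filtered TAF3 peak lay within 10 kb of 474 of 2046 (23.2%), against 3158 of 8337 (37.9%), a difference of -14.7 points (interval -16.8 to -12.6). Over both groups together the share was 35.0%. Within 1 kb the shares were 2.88% and 2.99% (difference -0.103 points, interval -0.853 to 0.785). Within 50 kb they were 60.2% and 80.1%. Distance to filtered H3K4me3 followed the same order, with medians of 29684 and 13165 bp.

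At matched enrichment the direction was the same, and at matched width the difference was smaller in narrow peaks. The share within 10 kb was lower for weak-TAF3 peaks in 10 of 10 groups of RNAPII fold enrichment, with intervals below 0 in 8. The exceptions were the groups with 9 and 19 weak-TAF3 peaks. Among peaks under 750 bp wide the difference was -6.19 points (interval -10.8 to -1.37), and at 750 to 1000 bp it was -3.73 points with an interval that included 0 (-8.40 to 1.11). These 2 groups held 974 of the 2046 weak-TAF3 peaks. In the 3 wider groups it was -14.5, -15.2 and -15.9 points, with intervals below 0. Averaged over the 5 width groups, with weak-TAF3 peaks as weights, it was -10.2 points.

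Weak-TAF3 peaks were also more isolated from other RNAPII peaks than TAF3-free peaks were. Another filtered RNAPII peak lay within 1 kb of 354 of them (17.3%), against 46.6% of TAF3-free peaks, a difference of -29.3 points (interval -31.2 to -27.3). Their median gap to the next filtered RNAPII peak was 9524 bp, against 1246 bp. It was 7460 bp for peaks with filtered TAF3 alone, 12720 bp with filtered H3K4me3 and no filtered TAF3, and 18896 bp with both. These gaps were not matched for width or enrichment. Among the 354 with a neighbour within 1 kb, 122 adjoined another weak-TAF3 peak, 150 a TAF3-free peak and 77 a peak with both filtered partners, and a peak could have more than 1 neighbour.

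**Figure D5:**
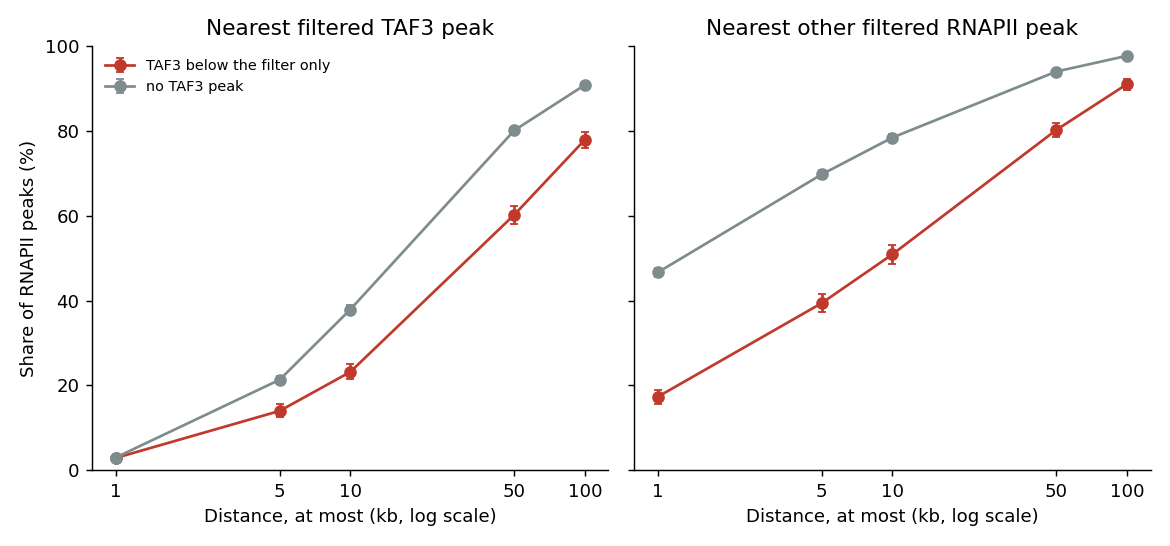
Share of weak-TAF3 (red) and TAF3-free (grey) RNAPII peaks (y axis, percent, with Wilson 95% intervals) with a filtered TAF3 peak (left) or another filtered RNAPII peak (right) within a given distance of the peak's edges (x axis, kb, log scale). The left curves start together at 1 kb, 2.88% and 2.99%, and separate to 60.2% and 80.1% at 50 kb, and the right curves are apart from 1 kb on, 17.3% and 46.6%.

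Some weak-TAF3 peaks lay in groups. Another lay within 10 kb of 389 of the 2046 (19.0%) and within 100 kb of 952 (46.5%). Any other filtered RNAPII peak lay within 10 kb of 50.9% and within 100 kb of 91.0%. The grouping was not compared with that of other classes. Stretches were ranked by the number of weak-TAF3 peaks whose RNAPII summits fell within 100 kb, and the coordinates run from the first edge to the last of those peaks. The densest was chr12:76029115-76121694, with 9 weak-TAF3 peaks among 15 filtered RNAPII peaks and 0 filtered TAF3 or H3K4me3 peaks. Their RNAPII fold enrichment ran from 16.9 to 80.7 and their TAF3 fold enrichment from 8.44 to 19.4, and 0 of the 9 had low H3K4me3. At chr8:128217319-128308495 there were 8 among 11 RNAPII peaks, with RNAPII from 8.51- to 42.4-fold and TAF3 from 4.81- to 11.7-fold, again with 0 filtered TAF3 or H3K4me3 peaks, and 2 had low H3K4me3. Another stretch, chr9:21615094-21711930, held 8 among 12, with RNAPII from 22.6- to 34.7-fold and TAF3 from 9.05- to 14.5-fold. It also held 1 filtered TAF3 peak and 0 filtered H3K4me3 peaks. The stretch on chromosome 4, chr4:30756325-30858131, held 7 among 16 and was the strongest of the first 5 by median RNAPII enrichment (55.9-fold). It also held 1 filtered TAF3 and 1 filtered H3K4me3 peak. Chromosome 1 had 7 at chr1:8193122-8273570, of which 3 had low H3K4me3, beside 1 filtered TAF3 and 2 filtered H3K4me3 peaks.

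Chromosomes differed in how often an RNAPII peak without filtered partners had weak TAF3. The share was highest on chromosome 8, at 116 of 379 (30.6%, interval 26.2 to 35.4%), and on chromosome 6, at 123 of 479 (25.7%, interval 22.0 to 29.8%). It was lowest on chromosome 19, at 128 of 910 (14.1%, interval 12.0 to 16.5%), and on chromosome 16, at 75 of 524 (14.3%, interval 11.6 to 17.6%), leaving aside chromosome Y with 1 such peak. These chromosomes were picked out after their values were seen.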

How the data were processed

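ChIP-seq of TAF3, H3K4me3 and RNAPII in HCT116 cells was compared with input DNA, 1 library each. Cells were crosslinked in 1% formaldehyde for 10 min and libraries were read for 36 bp, per the labels. The submitters' processing notes name CASAVA 1.8.2, MACS 1.4.2 and hg19. An aligner is not given in the sources used here. Each antibody was called against the same input with a p cutoff of 1e-05 and 1 tag kept per position, per the file headers. The limit on duplicates bounds tag counts at dense peaks. Per peak, the authors deposited a tag count without depth scaling, a fold enrichment (a ratio to local background), a score (negative log10 p-value times 10, given as 3100 for vanishing p) and an FDR in percent. Each of these is the authors' own value. The filtered lists hold exactly the peaks of the full lists with fold enrichment above 5 and FDR below 5%.

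Overlap meant 1 shared bp. Where several TAF3 or H3K4me3 peaks overlapped an RNAPII peak, the one of highest fold enrichment was used. Gaps were measured between peak edges. The class, the comparisons and the rule for named regions were chosen with earlier results of these data known. That rule takes the regions highest or lowest in RNAPII, TAF3 or H3K4me3 fold enrichment or RNAPII tags, those nearest the length limit, and the stretches with most RNAPII summits of the class in 100 kb, and the text stops partway down each order. The regions nearest the TAF3 limit were added after their values were seen. Genes and sequences are not analysed here, because the annotation used another build. Python 3.11.15 was used with pandas 2.3.3, numpy 2.4.6 and scipy 1.17.1, and figures were drawn with matplotlib 3.10.9. The code passed 16 of 16 checks on simulated data and on the authors' filter, and bedtools 2.31.1 gave the same overlap counts in 6 of 6 pairs of lists.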

Additional observations from a re-analysis of the deposited data

Results flagged for a closer look

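Signal of the same kind appeared in RNAPII peaks outside the class. Of the 34420 RNAPII peaks outside the authors' RNAPII filter that were under 5000 bp and had no filtered partner, 607 met a TAF3 peak below the filter (1.76%, interval 1.63 to 1.91%). Their RNAPII fold enrichment had a median of 13.3 and their TAF3 fold enrichment a median of 9.05. Summits lay within 100 bp at 61.0% of them, and 26.2% had an H3K4me3 peak below the filter.

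The length limit left out 50 RNAPII peaks of 5000 bp or more that met the rest of the rule, beside 708 such wide peaks with no TAF3 peak. The 50 had a median width of 7066 bp and a median RNAPII fold enrichment of 37.3. Of these, 28 had TAF3 and RNAPII summits within 100 bp and 16 had an H3K4me3 peak below the filter.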

How the results depend on the processing

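Under the alternatives 71 values were recomputed. The 95% interval of the reported value, or 1.5 times a reported count, held 50 of them. Of the differences among them 0 changed direction, which counts, medians and shares cannot do. The averages over width groups, the use of the RNAPII summit in place of the peak for both differences, and the comparison of summit shares with peaks that have both filtered partners were chosen after seeing the data. With an RNAPII FDR below 1% there were 894 peaks, with a median RNAPII fold enrichment of 41.5, an H3K4me3 share of 44.2% and a difference from TAF3-free peaks of 40.4 points, and 26.1% lay within 10 kb of a filtered TAF3 peak, a difference of -18.6 points. With TAF3 fold enrichment above 10 there were 817, with a median RNAPII fold enrichment of 40.8, summits within 100 bp at 72.6%, an H3K4me3 share of 46.0% and a difference of 40.7 points. With RNAPII fold enrichment above 20 the median was 33.9, the summit share 66.7%, the H3K4me3 difference 30.4 points and the 10 kb difference -11.0 points. These settings keep fewer and stronger peaks. With the RNAPII summit required inside a TAF3 peak, the summit share was 68.5%. With no filtered partner within 1000 bp, 20.4% lay within 10 kb of a filtered TAF3 peak. The H3K4me3 difference was 28.0 points averaged over 10 groups of RNAPII fold enrichment and 30.3 points averaged over width groups, the 10 kb difference -10.2 points over width groups, and the summit difference from peaks with both filtered partners -7.93 points over width groups. No paired analysis was possible because each antibody has 1 library, and for the same reason no library could be left out. Weak TAF3 peaks rest on a median of 30 tags, so a TAF3-free peak may hold TAF3 below detection at this depth.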
